A study of Mus musculus with 4 samples.

Results

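Radial glia are the elongated progenitor cells of the embryonic neural tube, which divide at the ventricular surface, produce neurons and later glia, and guide migrating neurons along their processes. They are recognised by the intermediate filament nestin, the brain fatty acid binding protein, the glutamate and aspartate transporter GLAST, the RNA-binding protein Musashi 1 and the receptor phosphatase RPTPζ. Pleiotrophin and midkine, a pair of related heparin-binding growth factors, are ligands of RPTPζ in the developing brain and are also made by mesenchyme and epithelium of many embryonic organs.

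The genes described here are 10 that were chosen by their symbols, Nes, Fabp7, Slc1a3, Msi1, Ptprz1, Ptn, Mdk, Prom1, Gfap and Pou5f2, out of 24771 features with an expression value. Each symbol matched 1 feature. Of these, 9 are genes used to recognise radial glia or neural progenitors, or growth factors that act on them. Pou5f2, a POU domain gene known from the male germ line, is not such a marker and is described here only because it was listed. RNA-seq had been carried out on PSC-derived SG placodes collected at day 10 (2 samples) and on 2 samples of submandibular glands (SMGs) from mouse embryos at E12.5. The placodes were grown from the mouse embryonic stem cell line 129w2 as aggregates of 3000 seeded cells in medium with 2% Matrigel. They received BMP4 (2 ng/ml, day 3), then bFGF (25 ng/ml) with RA (1 μM) on day 4, and FGF10 (200 ng/ml) from day 6. The SMGs are tissue whose mouse strain and dissection are not described in the sources used here. The labels print the culture protocol under them as well. Nothing states whether samples came from separate cultures or embryos, so the p-values below measure only the spread between these samples.

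Expression was given as FPKM, a fragment count scaled to transcript length and to the size of the library, so that levels of different genes can be set side by side. The read depth is unknown, and no counting interval or detection floor can be given. The summed FPKM lay between 361963 and 384773 per sample, and 12636 to 12807 features had an FPKM of at least 1. Differences were tested with limma on log2(FPKM + 1) over the 13193 features with a mean FPKM of at least 1, with Benjamini-Hochberg adjustment over all of them, and the threshold for a call was an adjusted p of 0.05. With 2 samples per group, the smallest p that an exact permutation test allows is 0.333. The log2 fold changes are placodes over SMGs on the log2(FPKM + 1) scale and understate the change of genes with low values. The median gap between the replicates of a group was 0.08 on this scale in the placodes and 0.09 in the SMGs. In bulk tissue, fewer cells of a type and less RNA per cell cannot be told apart.

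Among the 10 genes, 8 reached the mean FPKM of at least 1 and were tested, and each of these was also at 1 or above in every one of the 4 samples. Fabp7, Ptprz1, Msi1, Slc1a3, Nes and Prom1 were higher in the placodes, while the growth factor genes Ptn and Mdk were lower. All 8 passed the test, and this share is to be read against a background of 76.2% of all tested features (35.7% higher and 40.4% lower). Changes of at least 2-fold past the test were found for 7 of the 8, 5 higher and 2 lower, against 29.4% of all tested features. The median log2 fold change of the 8 genes was 1.14, with a range from -3.19 to 4.71, where the median of all tested features was -0.05. The groups did not overlap for any of the 8, as for 88.4% of all tested features. Gfap and Pou5f2 were below the minimum in all 4 samples and were not tested.

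**Figure D1:**
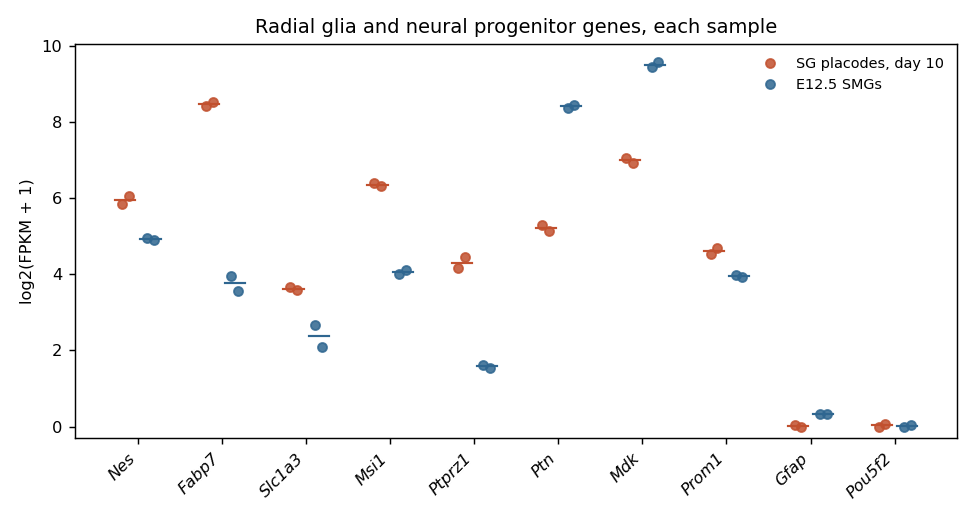
Expression of the 10 genes as log2(FPKM + 1) in each sample, with points for samples and short lines for group means (2 PSC-derived SG placode samples and 2 E12.5 SMG samples). Fabp7 stands highest in the placodes, at an FPKM of 343 and 367, Mdk and Ptn stand highest in the SMGs, and Gfap and Pou5f2 lie near 0 in both groups.

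The sequences before the start site are shown for Fabp7, Ptn and Ptprz1, which had the largest changes among the 8 of the 10 genes with an entry in the promoter table of RefSeq (GRCm38.p6). Msi1 and Mdk were not matched there. The windows reach back 250 bases from the RefSeq start site and end before the first base that GENCODE M21 annotates as exon of the gene, and they are written 5′ to 3′ on the strand of the gene. Capitals mark matches on either strand to TGGGAA, the core bound by the Notch effector RBPJ, and to CCAAT, the CCAAT box.
Fabp7 (chr10:57784673-57784880, plus strand): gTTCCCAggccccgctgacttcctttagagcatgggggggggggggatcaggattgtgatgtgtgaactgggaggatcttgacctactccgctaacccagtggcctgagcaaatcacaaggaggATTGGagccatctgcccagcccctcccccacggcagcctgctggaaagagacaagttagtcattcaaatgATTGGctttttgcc
Ptn (chr6:36810221-36810429, minus strand): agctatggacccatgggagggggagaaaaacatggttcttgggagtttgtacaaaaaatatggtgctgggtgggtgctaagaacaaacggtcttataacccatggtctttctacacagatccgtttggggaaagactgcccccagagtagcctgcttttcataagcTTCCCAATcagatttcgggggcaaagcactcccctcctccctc
Ptprz1 (chr6:22875252-22875501, plus strand): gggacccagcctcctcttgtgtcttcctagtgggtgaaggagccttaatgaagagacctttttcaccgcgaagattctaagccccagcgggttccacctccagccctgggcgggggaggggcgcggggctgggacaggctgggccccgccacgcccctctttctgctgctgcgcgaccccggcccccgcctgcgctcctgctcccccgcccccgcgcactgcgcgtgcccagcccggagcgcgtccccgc

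Fabp7 held 1 match to TGGGAA and 2 to CCAAT, of which the match nearer to the start site begins 56 bases before it. Ptn, which moved in the opposite direction, also held 1 match to each, and there the pair overlap. Ptprz1 held neither. Of all 32851 promoter windows of 250 bases, 21.6% held TGGGAA and 33.8% held CCAAT. A search for the SOX cores ACAAAG and ACAATG, present in 25.2% of windows, and for the POU site ATGCAAA, present in 4.12%, found 1 SOX match, before Pou5f2, and no POU match before any of the 8 genes with an entry. TGGGAA also had 1 match before Gfap and 1 in the first of 2 windows of Prom1, which held 1 CCAAT match as well, and Slc1a3 held 3 CCAAT matches. Nes held none of the motifs. These matches describe letters in the window and no binding was measured.

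Fabp7, which encodes the fatty acid binding protein of radial glia and of Schwann cell precursors, differed most of the 10 genes. The gene (ENSMUSG00000019874) lies at chr10:57784881-57788450 of GRCm38 on the plus strand and shares no exon with another annotated gene. Its FPKM was 343 and 367 in placode samples 1 and 2 and 14.6 and 10.9 in SMG samples 1 and 2. Both placode samples stood far above both SMG samples, and mean FPKM differed 27.9-fold. The log2 fold change was 4.71 (standard error 0.12, limma adjusted p = 6.71e-07), the 68th highest of all tested features. By FPKM, Fabp7 ranked 118 and 104 among all features in the placodes and only 5295 and 6552 in the SMGs.

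The other members of the fatty acid binding protein family were mostly silent. Fabp1, Fabp2, Fabp6, Fabp9, Fabp12 and Pmp2, the myelin member of the family, were listed at 0 in all 4 samples. Fabp5, which is expressed in epidermis and also in neural progenitors, had an FPKM of 119 and 118 in the placodes and 66.5 and 63.2 in the SMGs (log2 fold change 0.86, adjusted p = 1.32e-05). Fabp3, the heart type, was at 15.7 and 11.7 against 1.13 and 0.641 (log2 fold change 2.96, adjusted p = 1.84e-05), and its exons overlap antisense genes. Fabp4, of adipocytes and endothelium, had its higher values in the SMGs, at 1.92 and 1.35 against 0.138 and 0.240, and was not tested. In the SMGs the most abundant member was thus Fabp5, and in the placodes it was Fabp7.

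Nes encodes nestin, the intermediate filament of neural progenitors that is also made by endothelium, muscle precursors and mesenchyme. It lies at chr3:87971078-87980451 (ENSMUSG00000004891). Its FPKM was 56.9 and 65.4 in the placodes and 29.8 and 29.0 in the SMGs. Nes was well expressed in both groups, and it separated them by far less than Fabp7 did, with means of 61.1 ± 6.02 (SD, n = 2) and 29.4 ± 0.539 (SD, n = 2). The log2 fold change was 1.03 (standard error 0.07, limma adjusted p = 3.76e-05). This value lies close to the 2-fold level, and it was 0.93 without placode sample 2. The ratio of Fabp7 to Nes FPKM was 6.04 and 5.61 in the placode samples but 0.490 and 0.375 in the SMG samples.

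Nestin assembles with other intermediate filament proteins, and the genes of types III, IV and VI were set beside it. Vim, the type III vimentin of radial glia and of mesenchyme, was the most abundant in both groups, at 466 and 461 in the placodes and 393 and 383 in the SMGs. Its log2 fold change was 0.26 (adjusted p = 5.82e-03), and the adjusted p rose to 0.0603 and 0.0536 when placode sample 1 or 2 was left out. The filament genes of neurons differed more. Ina, which encodes α-internexin, was at 224 and 236 in the placodes against 1.90 and 1.62 (log2 fold change 6.39, adjusted p = 7.49e-08). The exons of Ina overlap an antisense gene. Nefm and Nefl, the medium and light neurofilament genes, were higher by 3.93 (adjusted p = 1.28e-07) and by 3.17 (adjusted p = 3.44e-07) on the log2 scale, and some of their exons overlap on opposite strands. Prph, of peripheral neurons, was higher by 1.70 (adjusted p = 1.27e-04). Synm was higher by 0.48 (adjusted p = 0.0129, but 0.0769 and 0.0653 without placode sample 1 or 2). Des, the desmin gene of muscle, was the member that was lower, at 0.721 and 0.585 against 8.82 and 7.19 (log2 fold change -2.44, adjusted p = 9.47e-06). Nefh was not tested, at 0.958 and 1.23 against 0.798 and 0.756. Of the 7 tested filament genes outside the 10, 6 were higher and 1 was lower, where 35.7% of all tested features were higher and 40.4% lower. The number higher was 4 when either placode sample was left out.

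Gfap, the filament gene of mature astrocytes and of radial glia in late stages, was close to 0 throughout. Its FPKM was 0.0227 and 0 in the placodes and 0.249 and 0.262 in the SMGs. The SMG values were thus above the placode values, at a level where neither group reached an FPKM of 1. Tested without a minimum of expression, its log2 fold change of -0.31 had an adjusted p of 8.57e-03. Pou5f2 was at 0 and 0.0432 in the placodes and 0 and 0.0375 in the SMGs, so that the groups overlapped.

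Slc1a3 encodes GLAST, which clears glutamate and aspartate and marks radial glia and astrocytes. It lies at chr15:8634124-8710764 (ENSMUSG00000005360). FPKM values were 11.6 and 11.0 in the placodes and 5.36 and 3.26 in the SMGs. The SMG samples differed from each other by 0.58 on the log2 scale, the widest replicate gap of the 8 genes, and both lay below the placode samples. On the log2 scale the difference was 1.24 (standard error 0.18, limma adjusted p = 1.07e-03). It became 0.95 without SMG sample 2, which is under the 2-fold level, and 1.53 without SMG sample 1.
Of its family, Slc1a2, the GLT-1 transporter of astrocytes, was higher in the placodes, at 10.8 and 11.5 against 0.261 and 0.152 (log2 fold change 3.33, adjusted p = 1.33e-06). Slc1a4, a neutral amino acid transporter of neural cells, was higher by 1.08 (adjusted p = 5.33e-05). Slc1a5, a glutamine transporter of proliferating cells, was lower, at 2.22 and 2.24 against 8.41 and 10.4 (log2 fold change -1.68, adjusted p = 3.38e-05). Slc1a1, the neuronal transporter EAAC1, was at 1.52 and 1.52 against 0.0960 and 0.0480 and was not tested. Slc1a6 (1.35 and 0.971 against 0.710 and 0.830) and Slc1a7 (0 and 0 against 0 and 0.0790) were not tested.

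**Figure D2:**
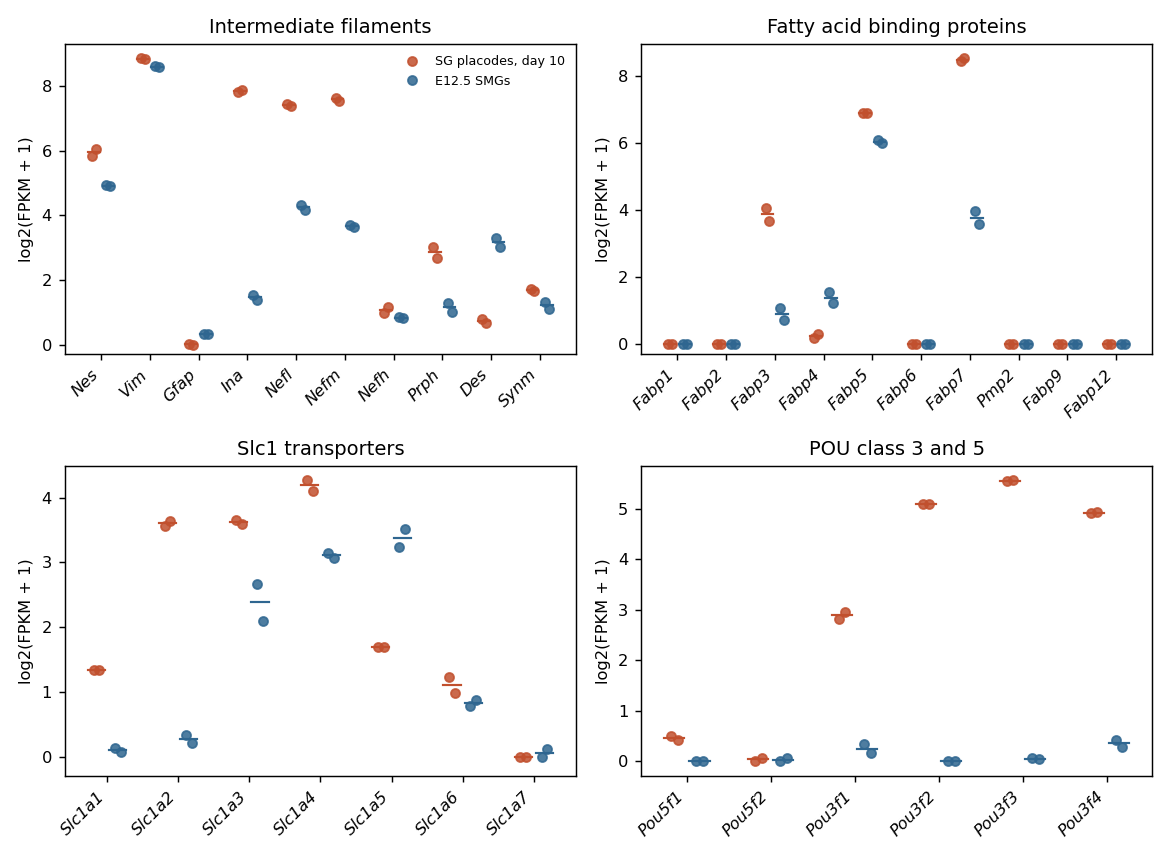
Expression as log2(FPKM + 1) of the intermediate filament, fatty acid binding protein, Slc1 and POU class 3 and class 5 genes, with points for samples and short lines for group means. Nefm, Nefl, Fabp7, Slc1a2 and the POU class 3 genes have their high values in the placodes, and Des, Fabp4 and Slc1a5 in the SMGs.

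Msi1 encodes Musashi 1, an RNA-binding protein that represses the translation of Numb in neural stem cells. The gene (ENSMUSG00000054256) lies at chr5:115429599-115455698. Its FPKM was 82.4 and 79.0 in the placodes and 15.1 and 16.3 in the SMGs, a ratio of means of 5.14. The placodes were higher by 2.29 on the log2 scale (standard error 0.06, limma adjusted p = 6.25e-07), and neither group varied by more than 0.11 between its replicates. Its paralogue Msi2 was at 39.8 and 42.2 against 16.9 and 16.6 (log2 fold change 1.25, adjusted p = 5.09e-06). In the SMGs the values of Msi2 lay just above those of Msi1, whereas in the placodes those of Msi1 were higher. Numb, an inhibitor of Notch, was lower, with a log2 fold change of -0.38 and an adjusted p of 0.0113, a call that was lost without placode sample 1 (adjusted p = 0.114) or SMG sample 1 (adjusted p = 0.0923). The related Numbl was higher by 0.37 (adjusted p = 1.47e-03).

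Prom1 encodes prominin 1 (CD133), a protein of membrane protrusions at the apical surface of neuroepithelium and of other epithelia, salivary ducts included. It lies at chr5:43993620-44102032 (ENSMUSG00000029086), and the antisense gene Gm16401 overlaps its exons. Its FPKM was 22.3 and 25.0 in the placodes and 14.9 and 14.1 in the SMGs. The difference was the smallest of the 8, with a log2 fold change of 0.67 (standard error 0.07, limma adjusted p = 2.69e-04). Its paralogue Prom2, found in epithelia, was at 0.0992 and 0.162 in the placodes and 2.11 and 1.68 in the SMGs (log2 fold change -1.35, adjusted p = 1.41e-04). The prominin genes therefore differed in opposite directions.

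Ptprz1 encodes RPTPζ, the receptor phosphatase of radial glia and glial precursors that binds pleiotrophin and midkine through its chondroitin sulfate chains. The gene (ENSMUSG00000068748) lies at chr6:22875502-23052916, and the 250 bases before its start site are those printed above. Its FPKM was 16.8 and 20.9 in the placodes and 2.05 and 1.93 in the SMGs. This gave a log2 fold change of 2.73 (standard error 0.12, limma adjusted p = 4.30e-06), and mean FPKM was 9.49-fold higher in the placodes.

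The ligands moved the other way. Ptn, for pleiotrophin, lies at chr6:36714929-36810220 (ENSMUSG00000029838). Its FPKM was 38.5 and 34.2 in the placodes and 331 and 346 in the SMGs, where it ranked 122 and 114 among all features. The log2 fold change was -3.19 (standard error 0.07, limma adjusted p = 3.63e-07), and mean FPKM was 9.31-fold higher in the SMGs. Mdk, for midkine, at chr2:91929805-91932297 (ENSMUSG00000027239), was the most abundant of the 10 genes in the SMGs. Its FPKM was 131 and 121 in the placodes and 695 and 758 in the SMGs, where it ranked 49 and 43. Its log2 fold change was -2.52 (standard error 0.07, limma adjusted p = 7.91e-07), and mean FPKM was 5.76-fold higher in the SMGs. Even so, Mdk remained the second most abundant of the 10 genes in the placodes, after Fabp7.
With the ligands lower and the receptor higher, the ratios within a sample were far apart. The FPKM of Ptn was 2.29 and 1.63 times that of Ptprz1 in the placode samples, and 161 and 179.5 times in the SMG samples. For Mdk over Ptprz1 the ratios were 7.78 and 5.79 against 338.5 and 393.5. Mdk exceeded Ptn in all 4 samples, by 3.41 and 3.54 times in the placodes and by 2.10 and 2.19 times in the SMGs.

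**Figure D3:**
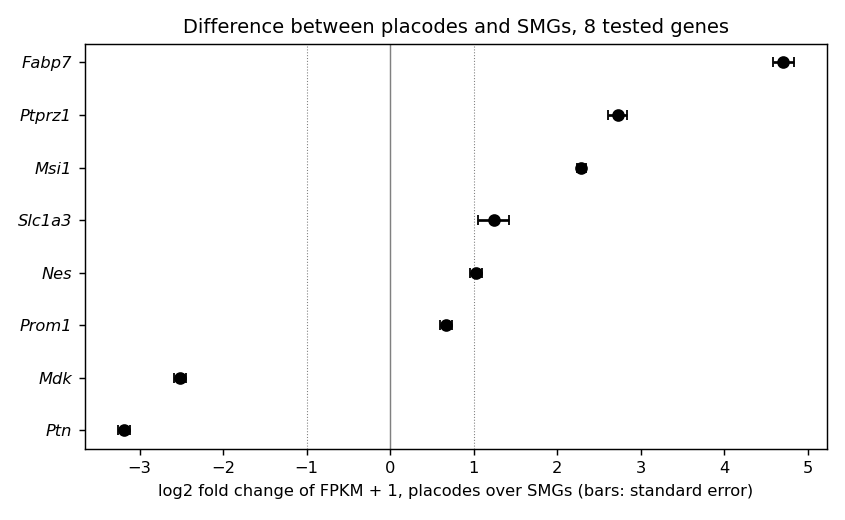
Log2 fold change of FPKM + 1, placodes over SMGs, of the 8 tested genes, with bars for the standard error of limma and dotted lines at a 2-fold difference. Fabp7 lies at 4.71 and Ptn at -3.19, and Nes and Slc1a3 lie just outside the upper dotted line.

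Receptors and binding partners of pleiotrophin and midkine other than Ptprz1 were counted from a list of 15 genes, all tested. Of these, 11 were lower in the placodes, 3 were higher and 1 was not called, with a median log2 fold change of -0.81, where 40.4% of all tested features were lower and 35.7% higher. The proteoglycan genes of the nervous system were those that were higher. Cspg5, for neuroglycan C, was at 17.3 and 16.3 against 1.02 and 1.38 (log2 fold change 3.02, adjusted p = 2.34e-06). Gpc2, a glypican of growing axons, was at 125.0 and 123 against 27.8 and 24.2 (log2 fold change 2.21, adjusted p = 1.42e-06), and had the highest placode level of the list. Sdc3, the neural syndecan, was higher by 0.52 (adjusted p = 1.41e-04), and its exons overlap antisense genes. Sdc1, the syndecan of epithelia, was at 17.8 and 19.1 against 79.0 and 80.4 (log2 fold change -2.05, adjusted p = 6.71e-07). Itgb1, the integrin β1 gene and the most abundant of the list in the SMGs, was at 52.9 and 52.4 against 165 and 160.2 (log2 fold change -1.61, adjusted p = 8.51e-07). Itga4, of the integrin α4 chain, was lower too (log2 fold change -1.73, adjusted p = 3.24e-05). Alk, a receptor tyrosine kinase, was near an FPKM of 1 in both groups, at 1.01 and 1.49 against 1.04 and 0.827, and did not pass the test (adjusted p = 0.235). The count of genes that were lower was 9 to 11 under the alternatives tried.

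**Figure D4:**
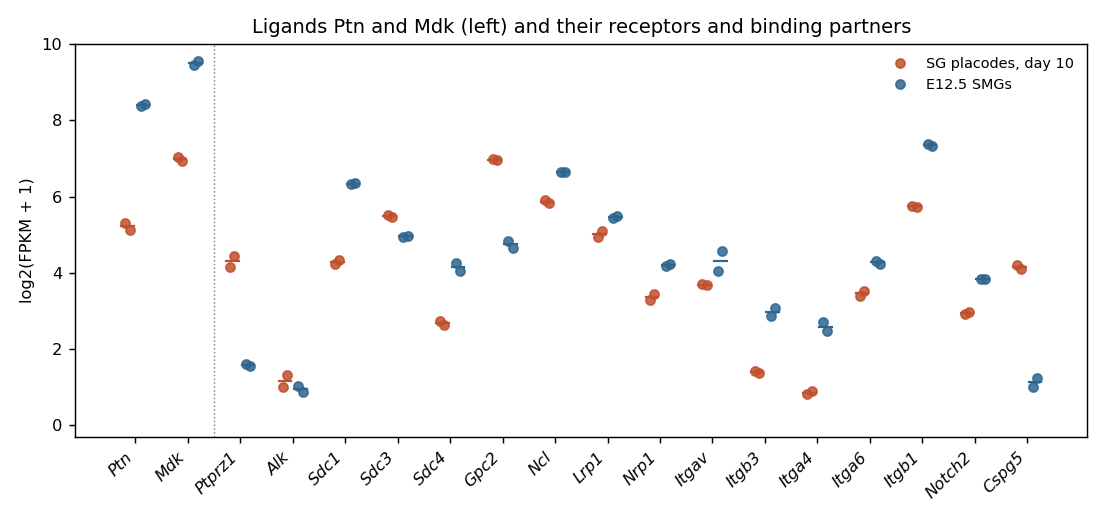
Expression as log2(FPKM + 1) of Ptn and Mdk, left of the dotted line, and of Ptprz1 and 15 other receptors and binding partners, with points for samples and short lines for group means. Both ligands have their high values in the SMGs, and Ptprz1, Gpc2, Sdc3 and Cspg5 in the placodes.

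Ptprz1 also binds adhesion molecules of neurons and matrix proteins. Of 10 such partners, with the paralogue Ptprg included, 9 were tested, of which 6 were higher, 2 were lower and 1 was not called, where 76.2% of all tested features were called, 35.7% higher and 40.4% lower. The neuronal adhesion molecules were higher. Nrcam was at 26.9 and 29.4 against 0.248 and 0.252 (log2 fold change 4.54, adjusted p = 3.26e-07), and L1cam was at 34.1 and 31.9 against 2.64 and 2.70 (log2 fold change 3.21, adjusted p = 4.39e-07). Ncam1, the most abundant of these in the placodes, was higher by 1.76 on the log2 scale (adjusted p = 1.15e-06). Tnc, the matrix protein tenascin C, was at 3.07 and 4.40 against 37.0 and 44.9 (log2 fold change -3.15, adjusted p = 7.27e-06). Fgf2 was lower as well, at 0.504 and 0.400 against 5.22 and 5.91 (log2 fold change -2.18, adjusted p = 9.76e-06), and it overlaps the antisense gene Nudt6.

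In the order of FPKM, the placodes had Fabp7, Mdk, Msi1, Nes, Ptn, Prom1, Ptprz1 and Slc1a3. No neighbours in this order overlapped in their values, although the gap between Prom1 (22.3 and 25.0) and Ptprz1 (16.8 and 20.9) was smaller than the spread within either gene. The order in the SMGs was Mdk, Ptn, Nes, Msi1, Prom1, Fabp7, Slc1a3 and Ptprz1. There Msi1, Prom1 and Fabp7 lay between 10.9 and 16.3, Prom1 and Fabp7 overlapped, and Msi1 was separated from Prom1 by less than the gap between replicates.

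Other genes of neural progenitors, from a list of 23 without the 10 above, were counted beside them. The placodes had higher levels of 19 of the 22 that were tested and lower levels of 3, with a median log2 fold change of 2.28. Of all tested features, 35.7% were higher and 40.4% lower. At least 2-fold higher were 13, against 14.1% of all tested features. The number called higher was 18 of 22 with a pseudocount of 0.01 or with no minimum of mean FPKM. It was 15 of 18 tested at a minimum mean FPKM of 5. Hes5, a Notch target of neural progenitors, was at 122 and 124 against 0.0343 and 0.193 (log2 fold change 6.80, adjusted p = 1.23e-07). Sox3, a SoxB1 factor of neuroepithelium, was at 72.5 and 69.1 against 0.0762 and 0.242 (log2 fold change 5.96, adjusted p = 1.94e-07). Those lower were Tnc, Hes1 and Gpm6b, of which Gpm6b was named after its values were seen. Hes1, a Notch target that is also active outside the nervous system, differed by a log2 fold change of -0.49, with an adjusted p of 9.37e-04. Gpm6b had -0.15 (adjusted p = 0.0260), which was lost under rescaling to an equal sum (adjusted p = 0.156) or by median ratios (adjusted p = 0.122), and when any of the 4 samples was left out (adjusted p from 0.0567 to 0.0767). Nr2e1, of forebrain progenitors, was listed at 0 in all 4 samples.
All 4 POU class 3 genes, factors of neural progenitors and neurons, were higher in the placodes, where 35.7% of all tested features were. Pou3f2, also known as Brn2, was at 33.2 and 33.1 in the placodes and at 0.00450 and 0 in the SMGs, and Pou3f3 was at 45.9 and 46.9 against 0.0336 and 0.0314. Pou3f4 was higher by 4.58 (adjusted p = 3.33e-07) and Pou3f1 by 2.65 (adjusted p = 5.49e-06). Pou5f1, which encodes Oct4 and is in the same class as Pou5f2, was at 0.403 and 0.340 in the placodes and listed at 0 in the SMGs.

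Markers of the other cells that could carry these genes moved as well, and their part in the differences above was not tested. All 14 neuronal genes were higher in the placodes, where 35.7% of all tested features were, with a summed FPKM of 1834 and 1868 against 186 and 171. Tubb3, the neuronal tubulin, was the most abundant in the placodes, at 345 and 365. Rbfox3, which encodes NeuN, was higher by 4.28 (adjusted p = 4.36e-07), and the smallest of the list were those of Ncam1 and of Gap43, a growth cone protein, at 1.93 (adjusted p = 6.26e-07).
Of 10 astrocyte markers, 8 were tested, with 3 higher and 5 lower, against shares of 35.7% and 40.4% among all tested features, and the summed FPKM was 138.5 and 136 against 196 and 177. Slc1a2 and the glycolytic gene Aldoc were higher, Aldoc by 2.43 (adjusted p = 1.86e-05), while Sparcl1 and Gjb6 were lower, by values of -1.94 (adjusted p = 1.51e-06) and -1.69 (adjusted p = 1.78e-03, and 0.0554 without placode sample 1). Glul, the glutamine synthetase gene, was the most abundant in the placodes, at 56.5 and 59.1 against 47.5 and 43.0. The defining marker Aqp4 was at 0 and 0.0119 in the placodes and 0.737 and 0.854 in the SMGs.
In the oligodendrocyte lineage, 1 of 6 tested genes was higher and 5 were lower, beside 35.7% and 40.4% of all tested features. Pdgfra, which is also a mesenchyme gene, was at 7.26 and 6.02 against 99.6 and 97.3 (log2 fold change -3.71, adjusted p = 4.39e-07). Mbp was higher by 0.67 (adjusted p = 5.99e-04). Olig2, named after its values were seen, was at 1.13 and 1.96 in the placodes and listed at 0 in the SMGs.

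Fabp7 and Ptprz1 are also expressed by glia outside the brain, so genes of peripheral glia and Schwann cell precursors were set beside them. Of 8 listed, all 8 had an FPKM of at least 1 in both SMG samples and 5 in both placode samples. Of 6 tested, 1 was higher, 4 were lower and 1 was not called, where 35.7% of all tested features were higher and 40.4% lower. The gene not called was Foxd3, a factor of early neural crest, at 4.40 and 3.56 in the placodes and 2.99 and 3.15 in the SMGs (log2 fold change 0.29, adjusted p = 0.0640). Foxd3 was called higher under 3 scalings, without the trend or without placode sample 2, with adjusted p between 0.0383 and 0.0487. Sox10, the factor of the glial lineage, was at 2.00 and 1.58 in the placodes and 19.1 and 16.7 in the SMGs (log2 fold change -2.77, adjusted p = 3.63e-06). Erbb3, the neuregulin receptor, differed likewise (log2 fold change -2.96, adjusted p = 1.64e-06). Cdh19, singled out after its values were seen, had values of 1.91 and 1.84 in the SMGs and was at 0 in each placode sample. Ednrb, an endothelin receptor of neural crest and also of neural progenitors, was higher, at 117 and 115 against 10.5 and 10.9 (log2 fold change 3.32, adjusted p = 1.55e-07). Ngfr had the highest SMG level of the list, at 37.8 and 33.9 against 27.4 and 28.3 (log2 fold change -0.35, adjusted p = 3.36e-03, and 0.0566 without placode sample 1).

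Ptn, Mdk, Nes and Prom1 are also genes of mesenchyme, endothelium or epithelium. All 9 mesenchyme markers were lower, where 40.4% of all tested features were, with a summed FPKM of 218 and 215 in the placodes and 2127 and 2075 in the SMGs. Prrx1, a factor of craniofacial mesenchyme, was at 4.05 and 3.94 against 115 and 122 (log2 fold change -4.58, adjusted p = 1.09e-07). Col3a1, the most abundant in both groups, was at 83.3 and 79.8 against 881 and 849, while Twist1 had the smallest difference, at -1.51 (adjusted p = 4.93e-06). Of 8 epithelial markers, 6 were lower and 2 were not called, where 40.4% of all tested features were lower. Their summed FPKM was 58.6 and 64.4 against 612 and 584. Sox9, which the study used as a marker of the early salivary epithelium, is not among these 8. It was counted above with the other neural progenitor genes. Sox9 was higher in the placodes, at 42.1 and 43.0 against 9.31 and 7.655 (log2 fold change 2.20, adjusted p = 3.66e-06). Pitx1, the oral ectoderm factor, was at 0.539 and 0.429 against 245 and 253.5 (log2 fold change -7.40, adjusted p = 4.10e-08). The defining keratin genes Krt5, Krt14 and Krt15 were listed at 0 in both placode samples. Cdh1, which encodes E-cadherin, was at 1.11 and 1.18 against 28.2 and 24.7 (log2 fold change -3.68, adjusted p = 6.41e-07). Krt8 was the most abundant epithelial marker in the placodes, at 34.4 and 35.6 against 36.1 and 28.2 (adjusted p = 0.322, but 0.0156 without SMG sample 1). Krt18, its keratin partner, was above the SMGs, at 20.8 and 24.5 against 20.0 and 15.4 (log2 fold change 0.34, adjusted p = 0.0541). It was called higher after rescaling to an equal sum or by median ratios, with the replicate block and without SMG sample 1, with adjusted p between 0.0254 and 0.0445. Endothelial and blood markers were lower in 7 of 7 tested cases, where 40.4% of all tested features were. Their median log2 fold change was -3.72. Cdh5, which encodes VE-cadherin, was at 8.07 and 7.60 against 30.3 and 35.4, the smallest difference of the 7 (log2 fold change -1.93). No other gene of this list reached an FPKM of 1 in the placodes. Tek, also of endothelium, was at 0.0578 and 0.0302 against 7.23 and 6.90 (log2 fold change -2.95). Hbb-y, an embryonic hemoglobin gene, was at 1336 and 1266 in the SMGs but at 0 in the placodes. Because bulk RNA of SMG tissue was compared with bulk RNA of aggregates, cell makeup and expression per cell cannot be told apart for any of the 10 genes.

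**Figure D5:**
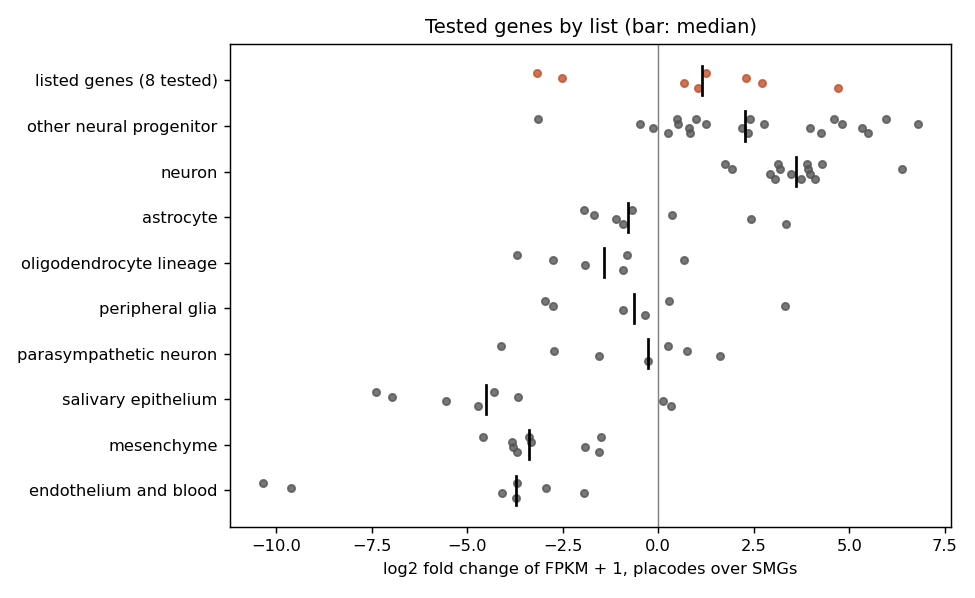
Log2 fold change of FPKM + 1, placodes over SMGs, of the tested genes of each list (points) with the median of each list (bar). The 8 tested radial glia and neural progenitor genes spread from -3.19 to 4.71, the 14 neuronal genes all lie above 0, and the mesenchyme and endothelial and blood genes all lie below 0.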

How the data were processed

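Total RNA of 2 samples per group was sequenced as paired-end reads. The authors mapped the reads with HISAT2 (version not given in the sources used here) and deposited expression per gene as FPKM. The submitters' processing notes list GRCm38 and GRCh38 without a role, and the annotation, strandedness and FPKM program are not given. Of 22036 Ensembl identifiers, 22022 were found in GENCODE M21 (GRCm38), the source of coordinates. Overlap with antisense genes is given above for some genes only. Exons of Hes5, Hand2 and Slc1a2, among others, also overlap antisense genes.

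FPKM was transformed as log2(FPKM + 1), and features with a mean FPKM of at least 1 were tested two-sided with limma 3.58.1 in R 4.3.3 (lmFit, eBayes with trend, group as the only term). The procedure was run on simulated data with far fewer changed features than were called here. That run therefore cannot vouch for the calls made in these samples. The 10 genes and all lists were chosen with earlier results of these data known, and the promoter motifs after the values were seen. Genes were named by a rule that takes the 10 genes, all members of their families, and of each other list the 2 highest and 2 lowest called log2 fold changes and the most abundant gene per group. For Nes and Fabp7, it also takes the 3 tested genes with the closest profile. Alk, Aqp4, Cdh19, Foxd3, Gpm6b, Krt5, Krt18, Nr2e1, Olig2, Ptprg, Sdc3 and Sox9 fall outside the rule and were named after their values were seen. The rule also takes Dcn, Gpr17, Hba-a1 and Pdgfrb, whose values are not given above.

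Samples were grouped by title. Alternatives changed the pseudocount, scaling, minimum, moderation or replicate block, or left out each sample. Figures were drawn with Python 3.11.15.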

Additional observations from a re-analysis of the deposited data

How the results depend on the processing

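All 8 tested genes kept their direction and passed the adjusted threshold under each of the alternatives that tested them. These were pseudocounts of 0.1 and 0.01, rescaling to an equal sum, median-ratio scaling, quantile normalization, no minimum or a minimum mean FPKM of 5, the replicate block, robust moderation or moderation without the trend, and leaving out each sample in turn. With a sample left out, the lone sample of its group was assumed to vary like the others. The ranges of the log2 fold changes were 4.51 to 4.90 for Fabp7, 2.58 to 3.23 for Ptprz1, 2.24 to 2.36 for Msi1, 0.95 to 1.53 for Slc1a3, 0.93 to 1.13 for Nes, 0.59 to 0.75 for Prom1, -2.58 to -2.46 for Mdk and -3.27 to -3.10 for Ptn. The highest adjusted p was 0.0450, for Slc1a3 without placode sample 1. The number at least 2-fold apart was 6 under quantile normalization, without placode sample 2 and without SMG sample 2, and 7 otherwise. With no minimum of mean FPKM, Gfap was called as well, which made 9 of the 10 genes, where 11894 of 20464 tested features were called. The number of features tested changed with the minimum. The lowest count called under the alternatives was 7460 of 9679 tested features, at a minimum mean FPKM of 5. The highest was 11894 of 20464, with no minimum. The same settings gave the lowest and highest counts of related genes, at 91 of 95 and 123 of 136 tested. Before any change, 10049 of 13193 tested features and 113 of 120 tested related genes were called.

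The samples share replicate numbers between the groups, but nothing links samples of the same number, and the correlation of their deviations from the group means over features was -0.03. With the number as a replicate block, 8 of the 10 genes, 115 of 120 tested related genes and 10043 of 13193 tested features were called. Depth is unknown and limits what can be said of Gfap, Pou5f2 and other genes below an FPKM of 1.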

Other observations

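The SMG contains parasympathetic neurons from early stages, and genes of these neurons were listed beside the progenitor genes. Of 8 such genes, 7 were tested, with 2 higher in the placodes, 3 lower and 2 not called. Among all tested features, 35.7% were higher and 40.4% lower. Hand2, a factor of autonomic neurons that is also made by mandibular mesenchyme, was at 0.0631 and 0.268 in the placodes and 19.8 and 18.5 in the SMGs (log2 fold change -4.12, limma adjusted p = 9.25e-07). Vip, which encodes a peptide of parasympathetic nerves, was at 6.89 and 4.54 in the SMGs and listed at 0 in each placode sample. Slc18a3, the vesicular acetylcholine transporter of cholinergic neurons, was at 4.07 and 4.24 in the placodes against 0.824 and 0.538 (log2 fold change 1.62, adjusted p = 5.15e-05). Ret, the receptor of GDNF family ligands, had the highest placode level of the list, at 13.1 and 12.7 against 7.31 and 7.15 (log2 fold change 0.76, adjusted p = 1.17e-04).

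The genes with the profile closest to Nes, by Euclidean distance of log2(FPKM + 1) over the 4 samples, were Cyp51 at a distance of 0.137, Arl8a at 0.168 and Nlgn2 at 0.168. Cyp51, an enzyme of cholesterol synthesis, had an FPKM of 57.8 and 63.6 in the placodes and 29.4 and 26.5 in the SMGs. Nlgn2 is a neuroligin of inhibitory synapses, and Arl8a is a small GTPase of lysosomes. Closest to Fabp7 were Eno1b at 0.744, Crmp1 at 0.778 and Bnip3 at 1.14, so that few features came near its profile. Crmp1, a cytoskeletal regulator of growing axons, had an FPKM of 304 and 307 in the placodes and 18.5 and 17.5 in the SMGs. With 4 samples in 2 groups, such a distance takes in the level, the difference between the groups and the differences between replicates.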
